A study of Mus musculus with 11 samples.

Results

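The genes described here encode the 6 receptors of somatostatin and ghrelin. Sstr1, Sstr2, Sstr3, Sstr4 and Sstr5 encode the somatostatin receptors, and Ghsr encodes the ghrelin receptor. They were selected by symbol, as 6 of the 31575 genes that had a region or window in any of the deposited tables. CUT&Tag, in which an antibody directs a transposase to cut and tag the DNA beside a chromatin mark or a bound protein, was used to measure H3K27ac, H3K27me3 and binding of the transcription factor ISL1. The receptor genes held 14 of 31479 H3K27ac regions, 21 of 20086 H3K27me3 regions and 6 of 22332 ISL1 promoter windows. The authors had assigned each region to a gene, and a region assigned to a receptor gene can lie inside another one.

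Pancreatic endocrine cells of mice were sorted by the red reporter tdTomato, expressed from the Ai14 allele after Cre recombination. Control mice were Isl1loxP/+;Neurod1-cre and Isl1CKO mice were Isl1loxP/loxP;Neurod1-cre, on a C57BL/6 background, with males and females among the littermates. Both genotypes carried Cre, and the Control mice had 1 floxed Isl1 allele, so Isl1CKO was compared with heterozygous cells. Cre was driven by Neurod1, which is active throughout the endocrine lineage and in some neurons, so the sort held all islet endocrine cell types that express it. Histone marks were measured at postnatal day 9 (P9) in 2 libraries per genotype and mark, each from a pool of 3 to 4 pancreases and about 20000 cells. For ISL1 only Control cells were used, from E14.5 embryos (2 libraries, given as 1 column) and from P9 (1 library).

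Somatostatin, released by the delta cells of the islet, restrains the secretion of insulin and glucagon. Its receptors are coupled to inhibitory G proteins, which lower cyclic AMP, open inwardly rectifying potassium channels and close calcium channels. The ghrelin receptor signals mainly through Gq and phospholipase C, and in the islet it is known above all from delta cells. H3K27ac is found at active promoters and enhancers, and H3K27me3 is laid down by Polycomb at silenced genes.

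The promoter sequences differed in their content of CG dinucleotides, the feature that marks CpG islands, where Polycomb is usually recruited. RefSeq promoter windows were matched for 4 of the 6 genes and named 5 start sites, as Sstr3 had 2. Sstr1 and Sstr5 were not matched. The 4 sequences printed here are the 250 bases before a start, 5′ to 3′ on the strand of the gene, with each CG in capitals. They were read on GRCm38.p6, at chr15:78544346-78544595 (minus strand) for Sstr3, chr3:27371101-27371350 (plus) for Ghsr, chr11:113619077-113619326 (plus) for Sstr2 and chr2:148395127-148395376 (plus) for Sstr4. They are shown because they set the gene with H3K27ac alone at its promoter, Sstr3, beside 3 genes with H3K27me3 there. Of these 3, Sstr2 had H3K27ac there as well. Whether CG content goes with the marks was not tested.
Sstr3: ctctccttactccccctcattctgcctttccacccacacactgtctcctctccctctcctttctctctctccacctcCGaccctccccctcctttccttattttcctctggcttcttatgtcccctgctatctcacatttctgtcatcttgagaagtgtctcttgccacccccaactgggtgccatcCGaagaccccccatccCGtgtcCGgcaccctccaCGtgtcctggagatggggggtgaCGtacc
Ghsr: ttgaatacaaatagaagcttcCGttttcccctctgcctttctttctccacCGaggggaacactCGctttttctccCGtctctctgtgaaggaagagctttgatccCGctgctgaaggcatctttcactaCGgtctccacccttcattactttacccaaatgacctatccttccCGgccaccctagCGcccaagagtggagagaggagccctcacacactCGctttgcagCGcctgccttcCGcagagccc
Sstr2: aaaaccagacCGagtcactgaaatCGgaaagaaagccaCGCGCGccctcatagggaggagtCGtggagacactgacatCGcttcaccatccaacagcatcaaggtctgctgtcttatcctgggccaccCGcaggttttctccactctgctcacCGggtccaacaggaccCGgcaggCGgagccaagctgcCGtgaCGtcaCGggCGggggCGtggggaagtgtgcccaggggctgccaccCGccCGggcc
Sstr4: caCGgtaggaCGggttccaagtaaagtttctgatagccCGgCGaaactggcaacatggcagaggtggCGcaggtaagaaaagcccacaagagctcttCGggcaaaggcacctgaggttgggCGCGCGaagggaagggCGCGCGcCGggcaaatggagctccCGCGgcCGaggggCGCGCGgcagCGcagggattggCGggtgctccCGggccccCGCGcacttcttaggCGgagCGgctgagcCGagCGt
The Sstr3 window had 6 CG dinucleotides, which was also the median over 32851 RefSeq windows of this length. Its other window, at chr15:78541407-78541656, had 1. Ghsr had 11, more than 64.4% of windows. Sstr2 had 18, more than 78.3% of windows, and Sstr4 had 28, more than 92.4%. The histone regions are on GRCm39, so whether these windows lie inside them was not tested. The letters CTAATG and CTAATT, cores of the ISL1 homeodomain motif, were searched on both strands and occurred in 0 of the 5 windows. Of all windows of the same length, 6.36% held the first, 7.48% the second and 13.2% either.

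The 6 genes fell into 3 classes by the regions that lay within 1 kb of their starts. Sstr3 had H3K27ac alone, as did 32.7% of the genes with an ISL1 window. Sstr4, Sstr5 and Ghsr had H3K27me3 alone, a class that held 8.08% of genes. Sstr1 and Sstr2 had both marks, as did 4.23% of genes. H3K27me3 regions therefore lay at the starts of 5 receptor genes, against 12.3% of all genes with a window, and H3K27ac regions at the starts of 3, against 36.9%. No H3K27ac region was listed for Sstr4 and no H3K27me3 region for Sstr3. Every listed region had at least 50 counts over its 4 libraries, so a weaker region would not appear. The Sstr2 H3K27ac promoter region was near that limit, with 5 and 37 counts in Control libraries and 11 and 2 in Isl1CKO libraries.

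**Figure D1:**
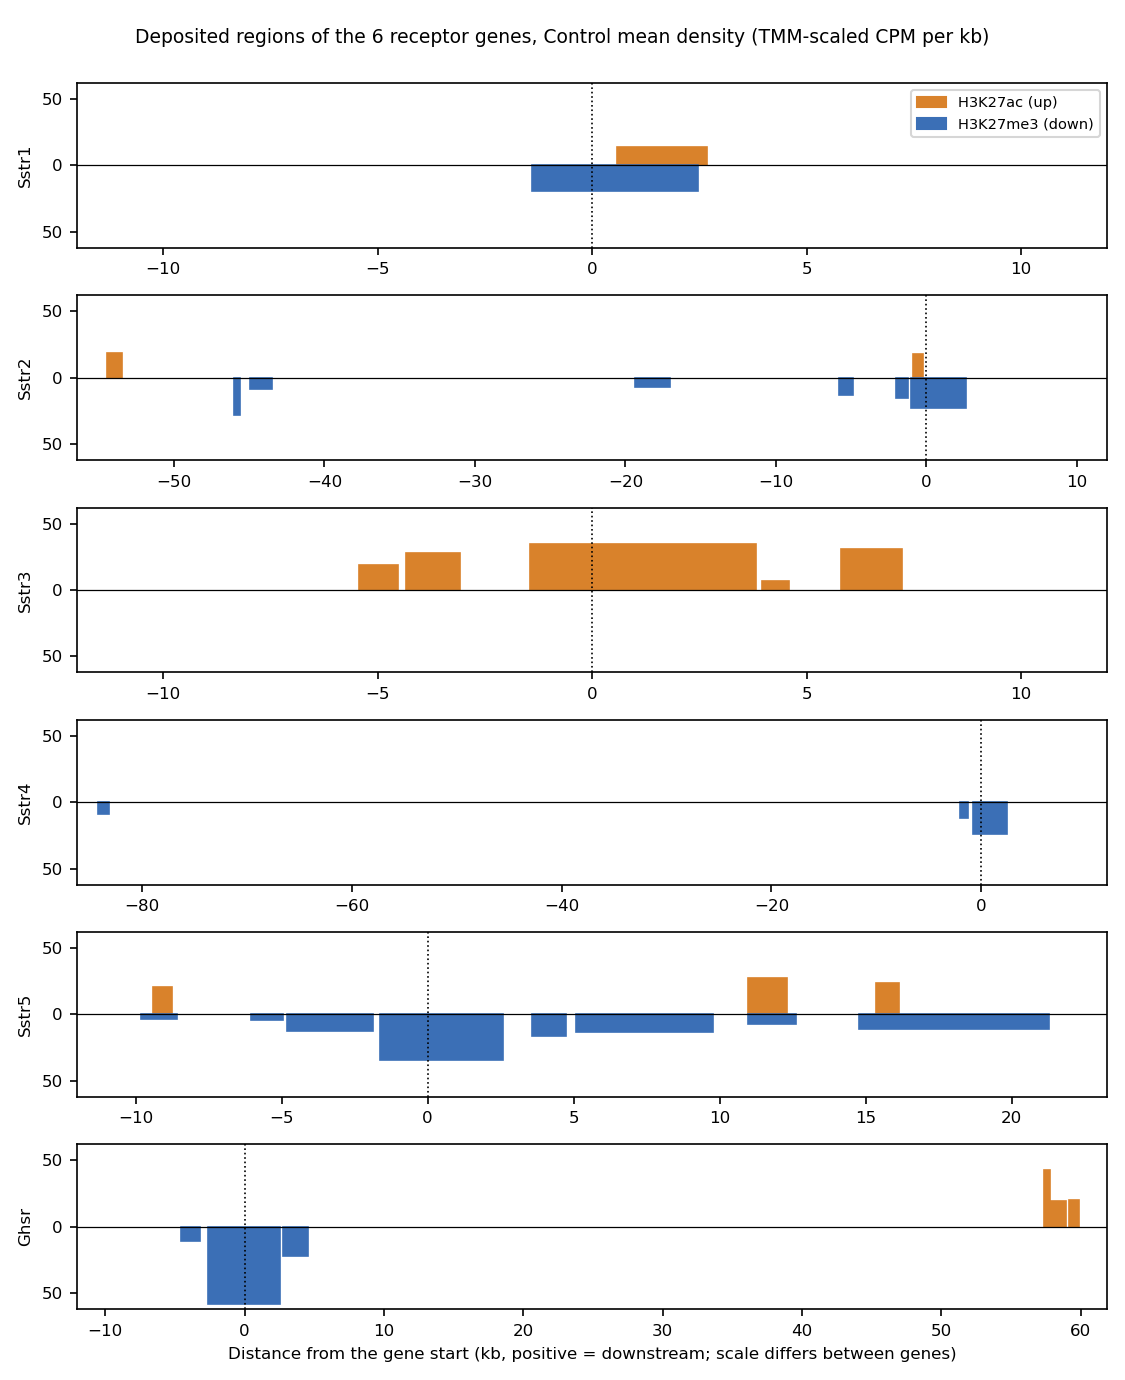
Deposited regions of the 6 receptor genes on GRCm39, with distance from the gene start in kb on the x axis and the mean density in Control libraries (CPM per kb) on the y axis, H3K27ac drawn upward in orange and H3K27me3 downward in blue. Sstr3 has only H3K27ac regions, Sstr4 has only H3K27me3 regions, and the H3K27ac regions of Ghsr stand apart from its H3K27me3 regions.

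Signal densities are given as CPM, the share of all counts in regions scaled with TMM factors, per kb of region, which allows genes to be compared. H3K27me3 density over the promoter region was highest for Ghsr, at 66.0 and 49.8 CPM per kb in the 2 Control libraries. Sstr5 followed with 48.1 and 20.2, Sstr4 with 29.4 and 18.9, Sstr2 with 39.0 and 6.78, and Sstr1 with 16.6 and 22.0. Ghsr lay above the other 4 in both libraries, while the ranges of Sstr5, Sstr4, Sstr2 and Sstr1 overlapped, so their order was not resolved. The Ghsr mean of 57.9 ± 11.5 CPM per kb (SD, n = 2) exceeded that of 91.7% of H3K27me3 promoter regions, and the Sstr1 mean of 19.3 ± 3.81 that of 50.5%. H3K27ac density was 34.3 and 34.6 CPM per kb over the Sstr3 promoter region, 14.8 and 12.6 for Sstr1, and 5.68 and 29.9 for Sstr2. Sstr3 lay above Sstr1 and Sstr2 in both libraries. Its region, 5261 bp wide, was broader than 99.6% of H3K27ac promoter regions and denser than 68.0% of them. Those of Sstr2 and Sstr1 were denser than 17.6% and 8.04% respectively.

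**Figure D2:**
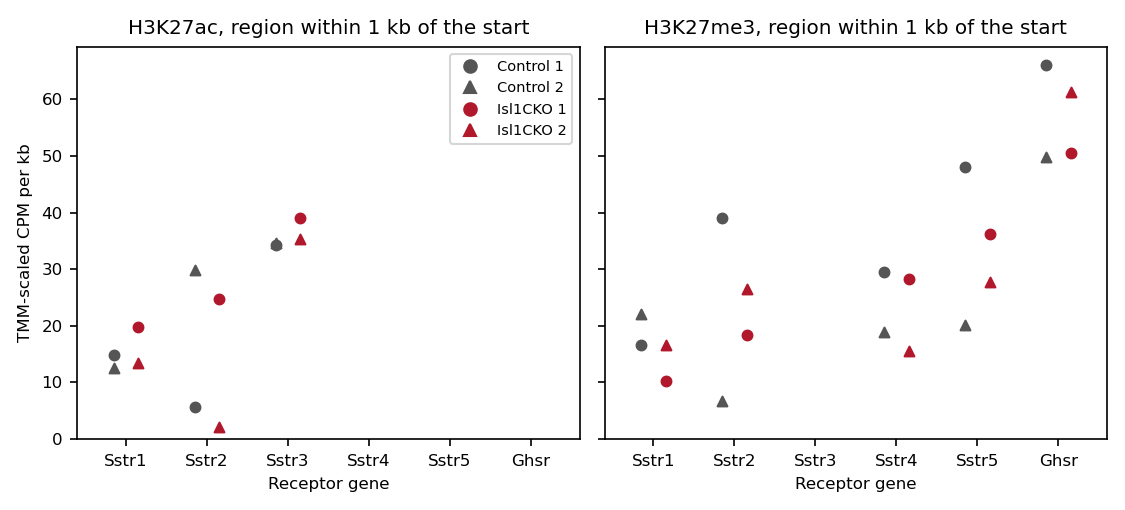
Density of H3K27ac (left) and H3K27me3 (right) over the region within 1 kb of each receptor gene's start, in CPM per kb, with 1 point for each library (grey Control, red Isl1CKO). Ghsr is highest for H3K27me3 and Sstr3 for H3K27ac, and the genotypes lie close together at both; genes without a point have no such region.

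H3K27ac and H3K27me3 regions overlapped at 3 of the 6 genes, Sstr1, Sstr2 and Sstr5. The overlaps involved 5 of the 14 H3K27ac regions of the receptor genes, and the number was the same when the overlap had to cover 50% of the shorter region. At Sstr1 the shared stretch was 1870 bp. At Sstr2 the whole H3K27ac promoter region, 679 bp, lay inside the H3K27me3 region. At Sstr5, 3 H3K27ac regions away from the start lay in H3K27me3 regions, while the promoter itself had H3K27me3 alone. Over all H3K27ac regions, 6.86% overlapped an H3K27me3 region, and of those at promoters 10.6% did. The share of all genes with such an overlap was not counted. In cells sorted as a mixture, both marks on the same DNA and each mark in different cells cannot be told apart. In the same way, fewer cells carrying a mark and less of the mark in each cell cannot be told apart in any of these libraries.

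H3K27ac was then compared between Isl1CKO and Control, which asks how the chromatin of these genes differed when Isl1 was deleted in endocrine cells. In edgeR's quasi-likelihood test with Benjamini-Hochberg adjustment, 0 of the 12 tested regions of the receptor genes were called at an adjusted p below 0.05. The background was 0 of 30036 regions (percent called 0), with 1751 at an unadjusted p below 0.05, 3 of them among the 12. DESeq2 called 27 regions over the whole table, with 0 among the 11 of the 12 to which it gave an adjusted p. The log2 fold change of Isl1CKO over Control was positive for 5 of the 12 and negative for 7, with a median of -0.55 against -0.03 over all tested regions. Both Isl1CKO values lay under both Control values in 7 of the 14 regions, where 20.3% of all regions did so, and above them in 3, where 17.4% did so. The 7 lay at Ghsr, Sstr3 and Sstr5 only, and neighbouring regions of a gene are not independent. In the upstream Sstr5 region the nearest values were 6.18 CPM in Control and 6.09 in Isl1CKO. With counts summed per gene, Ghsr alone lay below, where 20.3% of all genes did so. The 3 regions with an unadjusted p below 0.05 were at Ghsr and Sstr3.

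The largest difference at these genes was in a cluster of 3 H3K27ac regions assigned to Ghsr. They lay on chromosome 3 between 27482849 and 27485388, 57349 to 59888 bp downstream of the Ghsr start, in an exon and an intron of the neighbouring gene Fndc3b. The first region had 6 and 60 counts in the Control libraries and 0 and 0 in the Isl1CKO libraries. The second had 27 and 43 against 1 and 4, and the third had 22 and 23 against 2 and 8. In each of the 3 regions both Isl1CKO values lay under both Control values. The first region did not pass the filter on low counts and was not tested. Its summed count was at least 14.7-fold lower in Isl1CKO, taking a floor of 3 counts over the group. Of the 66 Control counts behind that bound, 60 came from Control replicate 2, the library that stood apart from the rest, and without it the bound was 3.21-fold.

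Summed over the 3 regions, Ghsr had 41.7 and 69.1 CPM of H3K27ac in Control and 4.48 and 8.42 CPM in Isl1CKO, or 55.4 ± 19.4 against 6.45 ± 2.78 (SD, n = 2). The libraries did not overlap, and the Isl1CKO counts were 3 and 12 in all. The log2 fold change of the sum was -3.01 (SE 0.69), with an unadjusted p of 0.000368 and an adjusted p of 0.265 in edgeR's test over 15993 genes, of which 0 were called (percent called 0) and 1197 had an unadjusted p below 0.05. DESeq2 gave an adjusted p of 0.00967 for the same sum, with 76 genes called. Without Control replicate 1, which leaves replicate 2 as the lone Control library, the adjusted p from edgeR was 0.000729, with 997 genes called in that fit. Without Control replicate 2 it was 0.310, at a log2 fold change of -2.60. Without Isl1CKO replicate 1 or 2 the adjusted p was 0.890 and 0.533, at log2 fold changes of -2.71 and -3.60. Over all alternatives the adjusted p ranged from 0.000729 to 0.890, and the log2 fold change from -3.60 to -2.53. Singly, the second region had a log2 fold change of -3.22 (SE 1.10, adjusted p = 0.846 in edgeR) and the third -1.70 (SE 1.19, adjusted p = 0.901).

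The regions assigned to Fndc3b itself gave a range of log2 fold changes that overlapped that of the Ghsr regions. Its promoter region had a log2 fold change of -0.06 (SE 0.44, adjusted p = 0.991 in edgeR), with 59.8 ± 3.79 CPM in Control against 58.1 ± 14.6 in Isl1CKO (SD, n = 2). Over the 5 of its 6 regions that were tested, the log2 fold change ran from -2.34 to 0.61 with a median of -0.34, and both Isl1CKO values lay under both Control values in 3 of the 6. The lowest tested Fndc3b region had 36 and 40 counts in Control libraries against 0 and 12 in Isl1CKO libraries. Its untested region had 9 and 46 against 3 and 1. The difference between the Ghsr and Fndc3b regions was not tested.

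Other markers of delta cells were measured beside Ghsr. Of the 5 delta markers Hhex, Sst, Ghsr, Rbp4 and Ptprz1, only Ghsr and Rbp4 had an H3K27ac region. Their summed level was 121 to 153 CPM in Control and 70.8 to 73.2 CPM in Isl1CKO. Rbp4, the other member of that sum, had 111 and 51.6 CPM in Control and 68.8 and 62.4 in Isl1CKO, so its groups overlapped (log2 fold change -0.31, SE 0.44, adjusted p = 0.904 in edgeR). The part of delta cell number in the Ghsr difference was not tested.

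At the start of Ghsr the genotypes overlapped. Its H3K27me3 promoter region, at chr3:27422847-27428024, had 342 and 258 CPM in Control and 262 and 317 in Isl1CKO. The means were 299.9 ± 59.4 against 289 ± 39.3 (SD, n = 2), and the log2 fold change was -0.05 (SE 0.22, adjusted p = 1.00 in edgeR). The flanking H3K27me3 regions, 3206 bp upstream and 2748 bp downstream, had log2 fold changes of 0.38 (SE 0.92) and 0.17 (SE 0.52). Both overlapped between genotypes.

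Sstr3, whose receptor is known from the primary cilium of beta cells, had 5 H3K27ac regions over 9487 bp, the highest number of the 6 genes. Summed over them it had 292 and 266 CPM in Control and 290 and 251 in Isl1CKO. The sum had a log2 fold change of -0.05 (SE 0.21, adjusted p = 0.977 in edgeR), which turned to 0.66 under the scaling that the authors' fold changes imply. The promoter region, at chr15:78425068-78430328, had 181 and 182 CPM in Control and 205 and 186 in Isl1CKO. Its Isl1CKO libraries were the higher ones, by a log2 fold change of 0.11 (SE 0.27), less than its standard error. The regions 3081 and 4517 bp upstream had log2 fold changes of -0.57 (SE 0.60) and 0.33 (SE 0.73).

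Inside the Sstr3 gene, a pair of smaller regions had log2 fold changes of opposite sign. The one in the 5′ UTR ends at position 78424931, close beside the promoter region, whose edge is at 78425068. Whether it is separate from the promoter region was not tested. The region in the 3′ UTR, at chr15:78421662-78423093, had 80 and 48 counts in Control libraries against 4 and 11 in Isl1CKO libraries. That was 44.0 ± 25.1 against 6.91 ± 1.16 CPM (SD, n = 2), with both Isl1CKO libraries lower and a log2 fold change of -2.62 (SE 0.74, adjusted p = 0.838 in edgeR). The region in the 5′ UTR, at chr15:78424300-78424931, had 5 and 8 counts in Control libraries against 23 and 23 in Isl1CKO libraries. That was 4.12 ± 0.372 against 25.6 ± 13.3 CPM, with both Isl1CKO libraries higher and a log2 fold change of 2.58 (SE 0.98, adjusted p = 0.850 in edgeR). Neither region was called. Without Control replicate 2 the 3′ UTR region was called, at a log2 fold change of -3.11 and an adjusted p of 0.0435 in edgeR. Without Control replicate 1 its log2 fold change was -1.89 (adjusted p = 0.307), and without Isl1CKO replicate 1 or 2 it was -2.49 and -2.84, each with an adjusted p of 1.00. For the 5′ UTR region the log2 fold change was 1.95 without Isl1CKO replicate 1 and 3.04 without Isl1CKO replicate 2, and the adjusted p was 0.190 to 1.00 with 1 library left out.

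As a share of all Sstr3 counts, the 3′ UTR region took 20.8% (95% Wilson interval 17.0 to 25.1) and 9.92% (7.56 to 12.9) in the Control libraries. It took 2.06% (0.805 to 5.18) and 3.07% (1.72 to 5.42) in the Isl1CKO libraries. The 5′ UTR region took 1.30% (0.556 to 3.00) and 1.65% (0.840 to 3.23) in Control, and 11.9% (8.03 to 17.2) and 6.42% (4.32 to 9.46) in Isl1CKO. The intervals of the 2 genotypes did not overlap for either region, but they cover counting error only, not the spread between pools of animals. A test of each region against the other regions of its gene (edgeR's diffSpliceDGE, added after the data were seen) gave relative log2 changes of -2.58 for the 3′ UTR region (unadjusted p = 0.000972) and 2.62 for the 5′ UTR region (unadjusted p = 0.0109). Both had an adjusted p of 1.00 over 19727 regions, of which 0 were called (percent called 0). The next H3K27ac region past the end of Sstr3, at chr15:78419516-78421228 and assigned to C1qtnf6, had 40 and 95 counts in Control libraries against 65 and 98 in Isl1CKO libraries. Both Isl1CKO libraries were higher there on the CPM scale, with a log2 fold change of 0.99 (SE 0.45, adjusted p = 0.852 in edgeR).

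**Figure D3:**
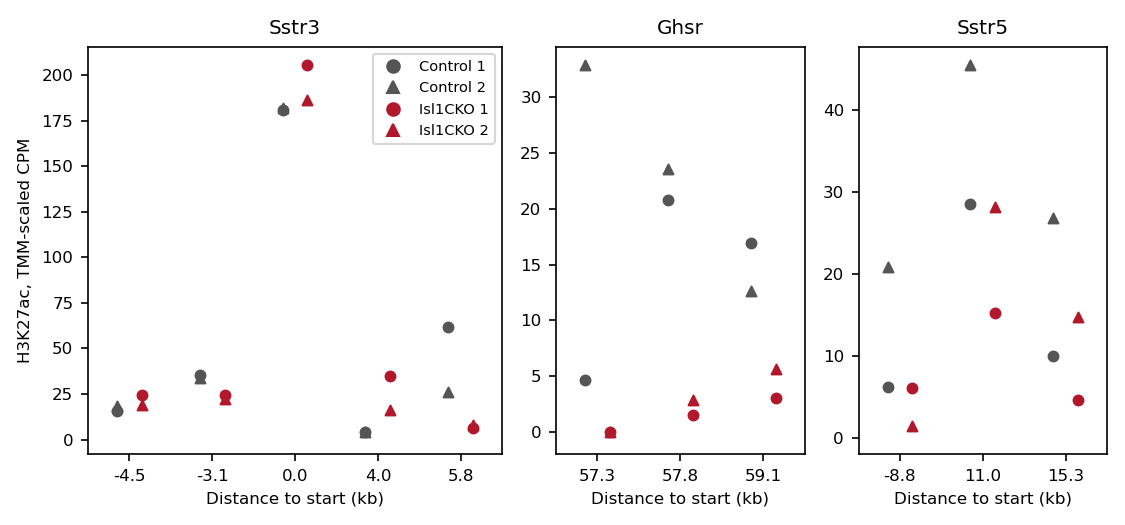
H3K27ac in each region of Sstr3, Ghsr and Sstr5, in CPM for each library (grey Control, red Isl1CKO), by distance of the region from the gene start in kb. The Isl1CKO points lie below the Control points in all 3 Ghsr regions, and in Sstr3 they lie above at 3954 bp and below at 5792 bp, while the Sstr5 points overlap in 1 of 3 regions.

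Sstr5, a receptor through which somatostatin inhibits mouse beta cells, had 3 H3K27ac regions, all of them 8763 to 15346 bp from its start. Their sum was 44.0 and 93.3 CPM in Control and 25.4 and 44.2 in Isl1CKO. The lower Control library lay just inside the Isl1CKO range, and the log2 fold change was -0.95 (SE 0.52, adjusted p = 0.710 in edgeR). Without Control replicate 2 it was -0.30, and without Isl1CKO replicate 2 it was -1.44. Of the single regions, the one upstream had 8 and 38 counts in Control against 4 and 2 in Isl1CKO and did not pass the filter. The 2 downstream had log2 fold changes of -0.74 (SE 0.63) and -0.87 (SE 0.95).

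Sstr1 and Sstr2, the other 2 genes with H3K27ac, had few counts. Sstr1, a somatostatin receptor that binds the hormone but few of its short synthetic analogues, had 40 and 48 counts in its promoter region in Control libraries against 27 and 40 in Isl1CKO libraries. On the CPM scale the groups overlapped, at 28.6 ± 3.23 against 34.6 ± 9.17 (SD, n = 2), and the log2 fold change was 0.26 (SE 0.59). Sstr2, a receptor through which somatostatin restrains alpha cells, had 5 and 37 counts in its promoter region in Control libraries against 11 and 2 in Isl1CKO libraries. Its libraries differed within each genotype by more than between them (log2 fold change -0.52, SE 1.30). The other Sstr2 region, 53472 bp upstream in the 5′ UTR of Slc39a11, had 25 and 29 counts in Control libraries against 10 and 35 in Isl1CKO libraries (log2 fold change 0.20, SE 0.74). All 3 had an adjusted p between 0.967 and 0.979 in edgeR's test.

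H3K27me3 was compared in the same way, and no region of the receptor genes passed the test. In edgeR's quasi-likelihood test 0 of the 21 regions of the receptor genes were called, where the background was 0 of 19434 (percent called 0). An unadjusted p below 0.05 was found for 0 of the 21 and for 843 over the whole table, and DESeq2 called 142 regions in all. It gave an adjusted p for 7 of the 21 regions and called 0 of these, and the other 14 had none. The log2 fold change was positive for 7 regions and negative for 14, with a median of -0.09 against 0.05 over all regions. Both Isl1CKO libraries lay above both Control libraries in 1 region, where 18.9% of all regions did so, and below them in 2, where 16.5% did so. The groups overlapped in the other 18.

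The 2 receptor genes with both marks at the start had different spreads of H3K27me3. At Sstr1 the promoter region, chr12:58257150-58261015, had 64.3 and 85.2 CPM in Control and 39.3 and 64.2 in Isl1CKO. The groups just missed each other, and the log2 fold change was -0.53 (SE 0.45, adjusted p = 1.00 in edgeR). With the TMM factors of the gene fit the same counts overlapped, at 63.1 and 83.3 CPM in Control and 39.8 and 65.2 in Isl1CKO. At Sstr2 the promoter region, chr11:113509143-113512779, had 142 and 24.7 CPM in Control and 66.7 and 96.5 in Isl1CKO. Both Isl1CKO libraries lay between the Control libraries, and the log2 fold change was -0.01 (SE 0.61). It was 1.72 without Control replicate 1, with an adjusted p of 0.383. The other 5 regions of Sstr2 lay upstream, 4 of them in an intron of Slc39a11, and had log2 fold changes from -2.10 (SE 1.46) to -0.20 (SE 0.98). The lowest of these, 45607 bp upstream, rested on 8 and 29 counts in Control libraries against 11 and 2 in Isl1CKO libraries, and both Isl1CKO values lay under both Control values on the CPM scale.

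At the genes with H3K27me3 alone at the start, Sstr4 and Sstr5, the promoter regions overlapped between genotypes. Sstr4, which is best known from the brain, had 97.8 and 62.9 CPM in Control and 94.0 and 51.9 in Isl1CKO over chr2:148236452-148239773. Its log2 fold change was -0.13 (SE 0.44). The other Sstr4 regions, 1278 and 83186 bp upstream, also overlapped, at -0.01 (SE 1.31) and -0.42 (SE 1.29), and held 7 to 35 counts per library. Sstr5 had 203 and 85.2 CPM in Control and 153 and 117 in Isl1CKO over chr17:25713691-25717905, with a log2 fold change of -0.09 (SE 0.38). Sstr5 had the most H3K27me3 regions of the 6 genes, 8 over 23457 bp, which ran across the gene and both flanks. Of these, the region 4943 bp upstream had 7 and 6 counts in Control libraries against 33 and 43 in the larger Isl1CKO libraries. On the CPM scale that was 6.17 and 3.52 against 14.1 and 18.3. Both Isl1CKO libraries were higher there (log2 fold change 1.74, SE 1.10, adjusted p = 1.00 in edgeR). The other 6 had log2 fold changes from -0.61 (SE 0.80) to 1.50 (SE 1.83) and overlapped.

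**Figure D4:**
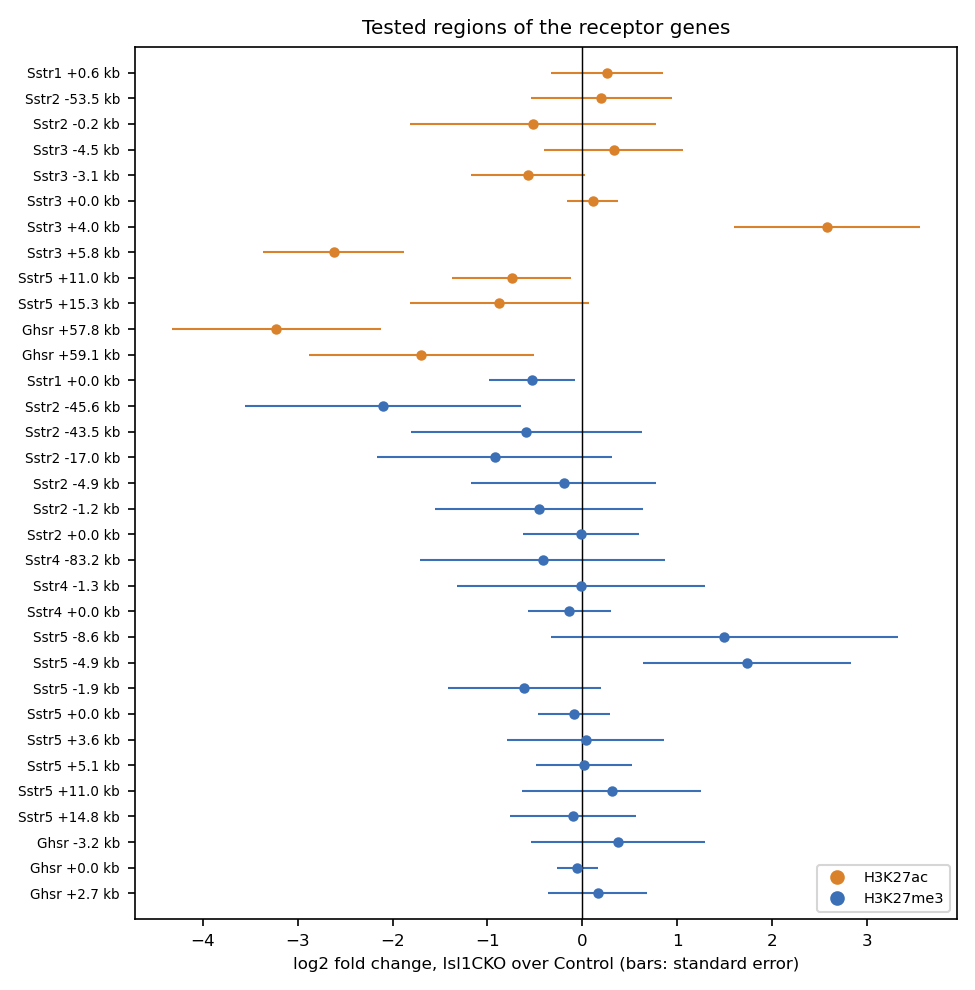
Log2 fold change of Isl1CKO over Control for the 12 tested H3K27ac regions (orange) and 21 tested H3K27me3 regions (blue) of the receptor genes, labelled by distance from the gene start, with bars of 1 standard error. Among the H3K27ac regions, those of Ghsr and the pair inside Sstr3 lie farthest from 0, and the promoter regions of Sstr3, Sstr4, Sstr5 and Ghsr lie within 1 standard error of 0.

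The authors' deposited table gives adjusted p values of its own, beside a likelihood ratio score, and does not state its library sizes. Per that table, 2 of the 14 H3K27ac regions were higher and 4 lower in Isl1CKO at an adjusted p below 0.05. Over all regions that table had 27.8% higher and 9.25% lower. The authors' deposited table gave a log2 fold change of -7.51 (adjusted p = 1.58e-07) for the first Ghsr region and -2.81 (adjusted p = 0.000104) for the second. In the authors' deposited table the 3′ UTR region of Sstr3 had -2.26 (adjusted p = 3.98e-05), its 5′ UTR region 3.12 (adjusted p = 1.7e-07) and its promoter region 0.77 (adjusted p = 0.0375). The fourth lower region in the authors' deposited table was the upstream region of Sstr5, at -1.75 (adjusted p = 0.0203). For H3K27me3 the authors' deposited table had 1 of the 21 regions higher and 6 lower, against 9.17% and 29.6% of all regions. The higher one was 4943 bp upstream of Sstr5, and the 6 were at Sstr1 (1), Sstr2 (3) and Sstr5 (2). Library sizes were inferred from the authors' values, with the spread between replicates (dispersion) preset at 0.04. These sizes moved the median log2 fold change of all regions in the edgeR fit from -0.03 to 0.61 for H3K27ac and from 0.05 to -0.51 for H3K27me3. With them edgeR called 3 H3K27ac regions and 0 H3K27me3 regions over the whole table. Why the authors' table has more regions below 0.05 was not tested.

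ISL1 was read in windows of 6000 bp around each gene's start, as a whole number whose unit the table does not state. At E14.5 the value was 3 for Sstr3, 2 for Sstr1, 2 for Sstr4 and 0 for Sstr2, Sstr5 and Ghsr. At P9 it was 1 for Sstr1 and 0 for the other 5. A value of at least 1 was thus found for 3 of 6 genes at E14.5, where 37.7% of all windows had one, and for 1 of 6 at P9, where 8.86% had one. The highest value of any window was 133 at E14.5 and 8 at P9, so the receptor values were near the low end of the scale. A value of at least 3, as at Sstr3, was reached by 8.96% of E14.5 windows, and one of at least 2 by 18.3%. With 1 column per stage there is no replicate check, and the stages, which differed in number of libraries, were not compared.

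A list of 64 other genes of somatostatin and ghrelin signalling gave 0 called genes in either mark. The background was 0 of 15993 genes for H3K27ac and 0 of 7909 for H3K27me3 (percent called 0), so this does not set the list apart. It held ligands and their processing enzymes, receptor partners, G protein subunits, effectors and related receptors. With counts summed per gene, 44 had H3K27ac regions that were tested in edgeR, 27 with a positive and 17 with a negative log2 fold change. Their median was 0.12, against -0.02 over all genes. For H3K27me3, 26 were tested, 12 positive and 14 negative, with a median of -0.11 against 0.02. Both Isl1CKO libraries lay above both Control libraries for 9 of the 44 genes and below them for 6, where 18.4% and 20.3% of all genes did so. For H3K27me3 it was 4 of the 26 in each direction, where 18.6% and 18.1% of all genes did so. ISL1 had a value of at least 1 in 37 of their 62 windows at E14.5 and in 10 of 62 at P9, where 37.7% and 8.86% of all windows had one.

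Among the ligands, H3K27ac at Ghrl, which encodes ghrelin, had a log2 fold change of 0.54 (SE 0.92), and at Cort, which encodes the somatostatin-like peptide cortistatin, 0.62 (SE 0.57). Sst, which encodes somatostatin, had no H3K27ac region, and its H3K27me3 had a log2 fold change of 0.18 (SE 0.26). Libraries of the 2 genotypes overlapped at all 3. Pcsk1, a protease that processes prohormones, had 47.0 and 40.0 CPM of H3K27ac in Control and 14.9 and 16.8 in Isl1CKO. The groups did not overlap, at a log2 fold change of -1.44 (SE 0.62, adjusted p = 0.642 in edgeR). Ntsr1, a neurotensin receptor, had -2.13 (SE 0.85), Galr3, a galanin receptor, 0.70 (SE 0.26), and Itpr3, an inositol trisphosphate receptor, 0.37 (SE 0.18). Pcsk1, Ntsr1, Galr3 and Itpr3 were picked from genes of the list whose groups did not overlap, and none was called.

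For H3K27me3 the named genes of the list were Mrap2, an accessory protein of the ghrelin receptor, Adcy1, an adenylate cyclase, Furin, a prohormone protease, and Plcb2, a phospholipase C. Mrap2 had 40.6 and 70.1 CPM in Control and 18.2 and 26.4 in Isl1CKO. Its Isl1CKO libraries were both lower, at a log2 fold change of -1.32 (SE 0.57, adjusted p = 0.889 in edgeR). Adcy1 had -0.42 (SE 0.27), Plcb2 0.47 (SE 0.39) and Furin 2.02 (SE 1.37), the last on 2 and 7 counts in Control libraries against 29 and 27 in the larger Isl1CKO libraries. On the CPM scale Furin had 1.73 and 4.02 in Control against 12.5 and 11.7 in Isl1CKO. The 4 were picked from genes of the list without overlap between the genotypes, and none was called.

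The genes most like each receptor in level across libraries were found by Euclidean distance of log2 CPM. Over 8 libraries of both marks and 1991 genes, the nearest to Ghsr were Egr4 (distance 1.13), Gdnf (1.48) and Siglec15 (1.60). Nearest to Sstr1 were Srms (1.00), Srrm3 (1.03) and Tmem158 (1.08), and nearest to Sstr2 were Mapt (0.874), Npr1 (0.990) and Ptger4 (1.01). Nearest to Sstr5 were Tnfrsf1a (0.922), Epha2 (1.03) and Unc5b (1.14). Over the 4 H3K27ac libraries and 10798 genes, Sstr3 was nearest to Mtss1 (0.133), Thra (0.143) and Dtnbos (0.150). Over the 4 H3K27me3 libraries and 4413 genes, Sstr4 was nearest to Arap3 (0.202), Slc52a3 (0.210) and Rbm46 (0.210). These distances describe levels in the same few libraries and carry no test.

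Libraries held 681047 to 1815510 counts in H3K27ac regions and 1202280 to 2276890 in H3K27me3 regions. Control replicate 2 of H3K27ac stood apart, with a correlation of 0.473 to 0.517 with the other 3 libraries, which reached 0.738 among themselves. Of 16 endocrine markers, 13 had an H3K27ac region, with a summed level of 1597 to 1745 CPM in Control and 1505 to 1668 in Isl1CKO. The hormone genes Ins2, Gcg and Sst had none. H3K27ac was also found at 2 of 7 acinar, 3 of 5 ductal, 2 of 5 endothelial, 1 of 5 mesenchymal, 1 of 5 immune and 2 of 5 glial markers, with H3K27ac ranges that overlapped between genotypes for all 6 lists. For H3K27me3 the ranges of 3 lists did not overlap. The 3 of 5 mesenchymal markers with a region summed to 1708 to 1725 CPM in Control and 1351 to 1395 in Isl1CKO, the 2 of 5 glial markers to 210.2 to 245 against 275 to 299, and the 4 of 16 endocrine markers to 289.7 to 351 against 378 to 406. Their part in the receptor genes' values was not tested. Isl1 itself had 208 and 221 CPM of H3K27ac in Control and 199 and 137 in Isl1CKO (log2 fold change -0.36, SE 0.26, adjusted p = 0.794 in edgeR), and since the marks do not report the deleted DNA this does not check the labels.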

How the data were processed

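H3K27ac and H3K27me3 were measured in 2 Control and 2 Isl1CKO libraries each, and ISL1 in Control cells, with groups taken from the sample labels. Per the submitters' processing notes, Bowtie2 2.3.5.1, Picard 2.27.4, MACS2 2.2.6, ChIPseeker 1.38.0, edgeR 4.0.16 and the build GRCm39 entered the processing. For every region, raw counts of each library were deposited, with the authors' log2 fold change, log2 mean abundance, likelihood ratio score, p value and adjusted p value. The ISL1 table holds whole numbers per promoter window, a deposited score whose unit is not given in the sources used here.

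Repeated lines were removed, 108 for H3K27ac and 90 for H3K27me3. Chromosome labels in the histone tables followed the alphabetical order of chromosome names and were relabelled, since only 7.48% and 9.25% matched the ISL1 table for the same gene as written. After relabelling 100% matched, over 18449 and 10277 regions. Of the per-sample columns, 0 were left unused.

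Counts were tested with edgeR 4.0.16 in R 4.3.3, with filterByExpr (30036 and 19434 regions kept, 1443 and 652 removed), TMM factors, the quasi-likelihood test with genotype as its only term, and Benjamini-Hochberg adjustment over all regions of a mark. A call was an adjusted p below 0.05. Counts summed per gene over its regions were fitted in the same way. CPM values are TMM-scaled, and they differ slightly between the region fit and the gene fit because each has its own factors. With 3 counts as the floor, a count of 0 in a library allowed a level of 1.64 to 4.56 CPM in H3K27ac libraries, and of 1.28 to 2.64 in those of H3K27me3. Floors and intervals cover counting error only. Scripts were tested on simulated data. Alternatives were library totals, the library sizes implied by the authors' values, DESeq2 1.42.0, no filter, a loess correction, a replicate block, each replicate left out, other ISL1 thresholds and a stricter overlap.

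The regions of the 6 genes are given singly or by their range. From the list of 64 signalling genes, the ligand genes are named, and for each mark also the 2 genes of lowest unadjusted p with a positive and the 2 with a negative fold change among those whose genotypes did not overlap. The 3 most similar genes were taken by Euclidean distance of log2 CPM with a prior count of 2, leaving out predicted genes. The receptor genes, the lists and the tests were chosen with earlier results of these data known. Promoter sequences are RefSeq windows on GRCm38.p6.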

Additional observations from a re-analysis of the deposited data

How the results depend on the processing

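There were 2 libraries per group, 681047 to 2276890 counts per library and as few as 50 counts per region. Even the summed H3K27ac difference of Ghsr, at a log2 fold change of -3.01, was not called by edgeR in the main fit. The lack of a call therefore does not show the lack of a difference, large or small. What limited the calls was not tested. The log2 fold changes kept their sign without the filter on low counts. The H3K27ac differences of Ghsr and of the 3′ and 5′ UTR regions of Sstr3 kept their sign under every alternative run. Where a value moved, the cause was not tested.

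Of H3K27ac regions, 0 were called by edgeR, 3 under the library sizes that the authors' values imply, 27 with DESeq2 and 0 to 900 with 1 replicate left out, of which 900 were without Control replicate 1 and 15 without Control replicate 2. Of genes with summed H3K27ac, 0 were called, 1 with the implied sizes, 76 with DESeq2, 2 with the loess correction and 0 to 997 with 1 replicate left out. For H3K27me3, DESeq2 called 142 regions and 9 genes against 0 and 0 with edgeR, and leaving out 1 replicate gave 0 to 11 genes. ISL1 values of at least 5 were found for 0 of the 6 genes at E14.5 and 0 at P9, and of at least 2 for 0 at P9.

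With other scalings these log2 fold changes reversed. With library totals, H3K27me3 values were 0.069 (Ghsr start), 0.12 (Sstr2 start), 0.12 (Sstr4 1278 bp upstream), 0.037 (Sstr5 start), 0.039 (Sstr5 14791 bp downstream). With the implied sizes, H3K27ac values were 0.58 (Sstr2 218 bp upstream), 0.082 (Sstr3 3081 bp upstream), 0.70 (Sstr2 summed), 0.66 (Sstr3 summed), and H3K27me3 values were -0.13 (Ghsr 3206 bp upstream), -0.35 (Ghsr 2748 bp downstream), -0.54 (Sstr5 3566 bp downstream), -0.63 (Sstr5 5095 bp downstream), -0.31 (Sstr5 10988 bp downstream), -0.68 (Sstr5 summed), -0.58 (Ghsr summed). With the loess correction, H3K27ac values were 0.89 (Sstr2 218 bp upstream), -0.12 (Sstr3 start), and H3K27me3 values were 0.12 (Ghsr start), 0.10 (Sstr2 start), -0.64 (Sstr5 8580 bp upstream), 0.043 (Sstr5 start), 0.0026 (Sstr5 14791 bp downstream). With DESeq2, H3K27me3 was 0.0078 (Sstr4 1278 bp upstream).

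Libraries of the 2 genotypes shared replicate numbers, but no label says that a number marks a shared litter or day, and deviations of same-numbered libraries correlated at 0.049 for H3K27ac and -0.014 for H3K27me3. With the replicate block, 63 genes were called for H3K27ac and 23 for H3K27me3, and 0 regions of either mark. Ghsr was then called on summed H3K27ac, at a log2 fold change of -3.09 and an adjusted p of 0.0165 in edgeR. H3K27me3 values that reversed with the block were -0.016 (Ghsr 3206 bp upstream), 0.15 (Sstr2 17041 bp upstream), 0.40 (Sstr2 start), 0.021 (Sstr5 start), -0.19 (Sstr5 3566 bp downstream).

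Leaving out 1 replicate leaves a lone library in its group, which is assumed to vary like the other group. The sign then changed for 7 H3K27ac results, whose log2 fold changes ranged over -0.023 to 0.51 (Sstr1 588 bp downstream), -0.22 to 0.48 (Sstr2 53472 bp upstream), -3.04 to 1.09 (Sstr2 218 bp upstream), -2.01 to 0.015 (Sstr5 15346 bp downstream), -0.013 to 0.51 (Sstr1 summed), -0.35 to 0.32 (Sstr2 summed), -0.15 to 0.058 (Sstr3 summed). It changed for 20 H3K27me3 results, with ranges of -1.30 to 1.13 (Ghsr 3206 bp upstream), -0.24 to 0.17 (Ghsr start), -0.051 to 0.38 (Ghsr 2748 bp downstream), -1.65 to 1.18 (Sstr2 43488 bp upstream), -1.89 to 2.83 (Sstr2 17041 bp upstream), -1.23 to 0.049 (Sstr2 1209 bp upstream), -0.80 to 1.72 (Sstr2 start), -1.56 to 1.11 (Sstr4 1278 bp upstream), -0.63 to 0.23 (Sstr4 start), -3.11 to 7.70 (Sstr5 8580 bp upstream). The others ranged over -1.95 to 0.58 (Sstr5 1884 bp upstream), -0.59 to 0.66 (Sstr5 start), -1.14 to 0.67 (Sstr5 3566 bp downstream), -0.51 to 0.82 (Sstr5 5095 bp downstream), -0.13 to 0.92 (Sstr5 10988 bp downstream), -1.21 to 1.25 (Sstr5 14791 bp downstream), -0.77 to 0.56 (Sstr2 summed), -0.38 to 0.24 (Sstr4 summed), -0.52 to 0.92 (Sstr5 summed), -0.11 to 0.20 (Ghsr summed). The 7.70 of the Sstr5 region 8580 bp upstream is set against a lone Control library with 0 counts and is no estimate of size. Against a floor of 3 counts in that library, the summed count of the Isl1CKO libraries was at least 6.89-fold higher. That bound rested on 1 and 56 counts in the Isl1CKO libraries. The Control library left out had 10 counts, and with it the genotypes overlapped.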
